A study of Mus musculus with 6 samples.

Results

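The genes described here are 10 genes of the cellular response to low oxygen. Hif1a and Epas1 encode the oxygen-regulated subunits of the hypoxia-inducible factors, and Adm, Vegfa, Car9, Ndrg1, Bnip3, Egln3, Ankrd37 and Angptl4 are well-known genes that these factors induce. They were chosen by name for that role, and all 10 were found among the 57186 genes of the count table and passed the filter on low counts. The libraries hold bulk RNA of CD45-negative cells, which lack the common leukocyte antigen, sorted from tumours grown in C57Bl/6J mice after subcutaneous injection of MB49 cells, a mouse bladder carcinoma line. The cells were CRISPR Y-KO in 3 libraries and CRISPR Y-Scr, the scrambled control, in the other 3, and tumours of both groups were taken at 500 mm3. Whether the edited cells were 1 clone or a pool, and the age and sex of the hosts, are not given in the sources used here. Cells of the host other than leukocytes are part of every library, and RNA of leukocytes was present as well (see the markers below). No label says that each replicate is another animal, and the p-values therefore cover the spread among these libraries alone, which can be technical.

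The hypoxia-inducible factors work as pairs of an alpha subunit (Hif1a or Epas1, also called HIF-2 alpha) and the constant partner Arnt. When oxygen is present, the prolyl hydroxylases Egln1 to Egln3 mark the alpha subunit, Vhl binds the mark, and the protein is destroyed. Hypoxia therefore acts on the Hif1a protein more than on its mRNA, and RNA libraries report mainly on the target genes. In solid tumours the targets are known for promoting vessel growth (Vegfa, Adm), regulating pH (Car9), glycolysis and the removal of mitochondria (Bnip3).

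The factors bind the letters ACGTG or GCGTG, the core of the hypoxia response element. RefSeq promoters of GRCm38.p6, each 250 bases before to 50 bases after a gene's start, were given for 7 of the 10 genes. Promoters of Epas1, Ndrg1 and Angptl4 are not shown. The promoters printed here are those of the 3 genes called higher in Y-KO tumours (Adm, Bnip3 and Vegfa, which has 2 starts in the table) and of 2 that were not called (Car9 and Ankrd37). Each is written 5′ to 3′ on the strand of the gene, and capitals mark the core letters on either strand.
Adm promoter, chr7:110627407-110627706, plus strand: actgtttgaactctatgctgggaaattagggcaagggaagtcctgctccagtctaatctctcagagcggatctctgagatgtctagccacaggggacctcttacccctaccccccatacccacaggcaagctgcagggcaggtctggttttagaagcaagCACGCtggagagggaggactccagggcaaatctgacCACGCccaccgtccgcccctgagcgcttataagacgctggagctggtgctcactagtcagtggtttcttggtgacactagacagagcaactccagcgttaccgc
Bnip3 promoter, chr7:138909457-138909756, minus strand: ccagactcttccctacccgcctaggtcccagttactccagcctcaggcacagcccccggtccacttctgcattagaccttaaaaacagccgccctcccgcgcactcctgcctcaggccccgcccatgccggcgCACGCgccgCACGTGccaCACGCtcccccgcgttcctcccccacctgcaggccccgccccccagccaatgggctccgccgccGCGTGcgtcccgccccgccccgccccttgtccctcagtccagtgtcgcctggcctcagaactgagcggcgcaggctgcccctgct
Vegfa promoter at the upstream start, chr17:46032328-46032627, minus strand: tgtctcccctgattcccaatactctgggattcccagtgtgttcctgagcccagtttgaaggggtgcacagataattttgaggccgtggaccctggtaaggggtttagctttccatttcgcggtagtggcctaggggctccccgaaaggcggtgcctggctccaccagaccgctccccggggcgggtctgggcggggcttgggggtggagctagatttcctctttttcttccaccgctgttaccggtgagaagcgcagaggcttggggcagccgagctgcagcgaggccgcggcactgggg
Vegfa promoter at the downstream start, chr17:46025114-46025413, minus strand: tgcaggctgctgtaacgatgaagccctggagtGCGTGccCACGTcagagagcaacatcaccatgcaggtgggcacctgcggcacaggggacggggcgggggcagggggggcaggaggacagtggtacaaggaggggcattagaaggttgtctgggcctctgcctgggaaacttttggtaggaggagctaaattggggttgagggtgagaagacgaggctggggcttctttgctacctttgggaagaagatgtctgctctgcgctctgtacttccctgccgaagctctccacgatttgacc
Car9 promoter, chr4:43506776-43507075, plus strand: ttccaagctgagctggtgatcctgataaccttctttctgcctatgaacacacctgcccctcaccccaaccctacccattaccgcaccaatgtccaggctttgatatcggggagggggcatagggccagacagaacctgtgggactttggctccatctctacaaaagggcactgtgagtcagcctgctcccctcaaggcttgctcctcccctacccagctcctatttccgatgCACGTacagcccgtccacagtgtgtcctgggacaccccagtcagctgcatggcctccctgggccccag
Ankrd37 promoter, chr8:45999801-46000100, minus strand: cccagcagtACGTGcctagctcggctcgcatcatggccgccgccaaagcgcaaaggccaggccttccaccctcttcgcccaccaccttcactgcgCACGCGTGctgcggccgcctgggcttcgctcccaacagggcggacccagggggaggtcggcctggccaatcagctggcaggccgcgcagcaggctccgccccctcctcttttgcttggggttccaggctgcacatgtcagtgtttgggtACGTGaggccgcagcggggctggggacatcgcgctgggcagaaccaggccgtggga

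In the Adm promoter, GCGTG lay 90 and 54 bases before the start, both times on the opposite strand. The Bnip3 promoter held 5 matches, between 117 and 35 bases before the start, and 2 of them were the same palindromic stretch read on both strands. At the upstream Vegfa start neither core was found in this window. The downstream start lies inside the gene (window 46025114 to 46025413, against 46032328 to 46032627 for the upstream one). It had GCGTG at 218 and ACGTG at 211 bases before it. Both matches lie in letters that read as protein-coding sequence of Vegfa, so they are not matches in the promoter of the upstream start. Car9 had 1 match, 18 bases before its start, and Ankrd37 had 4, of which 2 overlapped. Either core, on either strand, was in 43.8% of the 32851 promoters of the same length, at least 3 matches were in 8.93% and at least 5 in 1.66%. A match is a string of letters and not a bound site, and the called and uncalled genes both had them.

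Across the genome 17837 genes were tested with edgeR, and 16.1% had a Benjamini-Hochberg adjusted p under 0.05 between Y-KO and Y-Scr tumours, 7.82% higher and 8.27% lower in Y-KO. Of the 10 hypoxia genes, 3 were called, all higher in Y-KO (Adm, Bnip3 and Vegfa), and the other 7 were not. The median log2 fold change of the 10 was 0.18, against -0.03 over all genes tested, with 6 values above zero and 4 below. The Y-KO and Y-Scr libraries did not overlap for 4 of the 10 genes, Ndrg1 being the one that was lower in Y-KO, and the same was seen for 37.7% of all genes. Library totals ran from 42040955 to 52951031 counts. The sum of the Y-linked genes Kdm5d, Ddx3y, Uty and Eif2s3y lay between 20.4 and 47.3 CPM in Y-KO and between 296 and 344 CPM in Y-Scr, so each Y-KO library was lower, as a check of the labels. Y-KO replicates 1 and 2 lay close together (median absolute log2 difference 0.18, against 0.34 and 0.35 to replicate 3). Y-Scr replicates 2 and 3 were the closest of their group (0.14), but were less set apart (0.18 and 0.20 to replicate 1). By this measure all Y-Scr libraries were about as near each other as Y-KO replicates 1 and 2. These are the close pairs that are summed below.

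**Figure D1:**
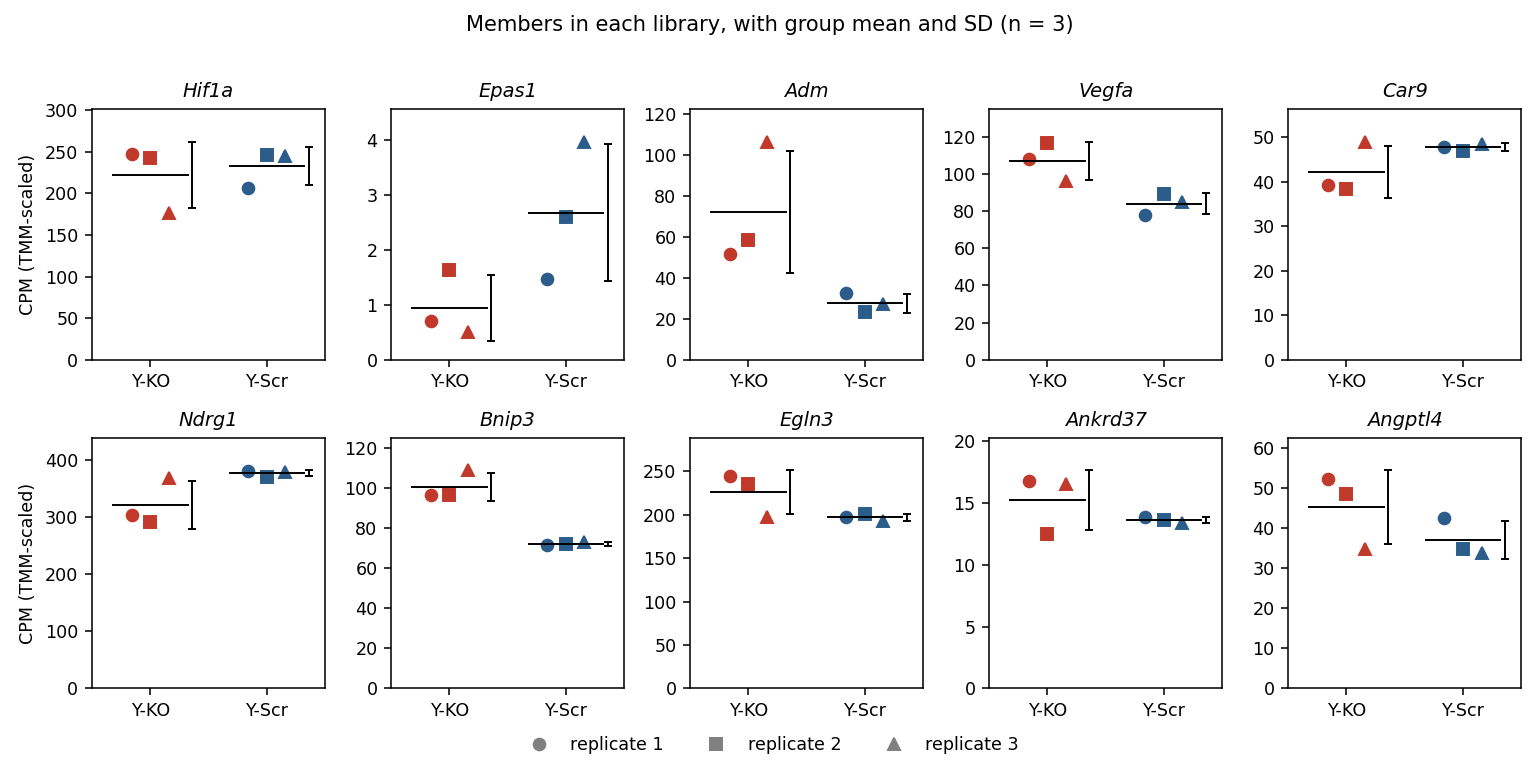
TMM-scaled level (CPM, vertical axis from zero, its own scale in each panel) of the 10 genes in each library, with Y-KO in red at the left and Y-Scr in blue at the right; symbols give the replicate, lines the mean and bars the SD (n = 3). The groups do not overlap for Adm, Bnip3, Vegfa and Ndrg1, and Y-KO replicate 3 stands apart from the other Y-KO libraries for Hif1a, Adm, Car9, Ndrg1 and Angptl4.

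Hif1a (chromosome 12, 73948149 to 73994304, GRCm39, as are all gene coordinates that follow) encodes the alpha subunit found in most cell types. It stood at 248, 242 and 176 CPM in Y-KO and at 206, 246 and 246 CPM in Y-Scr. The groups overlapped, and the lowest of the 6 libraries was Y-KO replicate 3. The log2 fold change was -0.07 with a 95% interval of -0.38 to 0.25 (edgeR adjusted p = 0.799), so a difference of more than 0.38 in either direction lay outside the interval. It was not called in any alternative, but its sign turned to 0.076 without Y-KO replicate 3 (edgeR adjusted p = 0.500).

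Epas1 (chromosome 17, 87061128 to 87140838), whose alpha subunit is best known from endothelial cells, was scarce. Its levels were 0.702, 1.62 and 0.499 CPM in Y-KO against 1.46, 2.60 and 3.96 CPM in Y-Scr, from 34, 72 and 22 counts in Y-KO and 80, 116 and 212 counts in Y-Scr. Y-KO replicate 2 was above Y-Scr replicate 1, and both groups spread widely. The log2 fold change of -1.51 (SE 0.54, 95% interval -2.73 to -0.28) did not pass (edgeR adjusted p = 0.0950). Epas1 was called lower with DESeq2 (adjusted p = 0.0401), with edgeR and no filter (adjusted p = 0.0285) and with edgeR without Y-KO replicate 2 (adjusted p = 0.0411), and in none of the other 13 alternatives. The summed endothelial markers lay at 46.6 to 53.9 CPM in Y-KO against 77.6 to 85.7 CPM in Y-Scr. Of the 9 tested genes 0 were called, beside 16.1% of all genes. Plvap and Pecam1 made up most of that sum, and Cdh5 went the other way, at 3.59 to 4.38 CPM in Y-KO against 2.56 to 3.42 CPM in Y-Scr. The part of these cells in the Epas1 values was not tested. In bulk RNA, fewer cells of a type and less RNA per cell cannot be told apart, here and in every result below. TPM, a level that allows for gene length, put Hif1a above Epas1 in every library, by a ratio of 335, 141 and 334 in Y-KO and of 134, 89.5 and 58.7 in Y-Scr.

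Adm (chromosome 7, 110226868 to 110229027) encodes adrenomedullin, a secreted peptide that widens blood vessels and promotes their growth. It was at 51.7, 58.6 and 107 CPM in Y-KO, against 32.6, 23.3 and 27.3 CPM in Y-Scr. Each Y-KO library was above all Y-Scr libraries, and Y-KO replicate 3 was by far the highest. Adm rose 2.60-fold in Y-KO (72.3 ± 29.9 CPM in Y-KO against 27.7 ± 4.67 CPM in Y-Scr, SD, n = 3 each; log2 fold change 1.38 with an SE of 0.26, edgeR adjusted p = 0.0102), the largest called difference among the 10 genes. Y-KO replicate 3 stood 3.84 times above the mean of Y-Scr, and the mean of the other Y-KO libraries 1.99 times. Without that library the log2 fold change was 0.99 (edgeR adjusted p = 1.63e-05). The call was lost without Y-Scr replicate 2 (edgeR adjusted p = 0.0607) and without Y-Scr replicate 3 (edgeR adjusted p = 0.0634), and when each close pair of libraries was summed into 1 (edgeR adjusted p = 0.0752, with 2 samples a group).

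Vegfa (chromosome 17, 46327919 to 46343295) encodes the main growth factor of blood vessels. Its levels were 108, 117 and 96.3 CPM in Y-KO, against 78.0, 89.2 and 85.0 CPM in Y-Scr. The groups did not overlap, but the lowest Y-KO library was close to the highest Y-Scr library. Vegfa rose 1.27-fold in Y-KO (107 ± 10.3 CPM in Y-KO against 84.1 ± 5.66 CPM in Y-Scr; log2 fold change 0.35, SE 0.10, edgeR adjusted p = 0.0484). This call stood next to the threshold. Leaving out Y-KO replicate 1 or 2, or any Y-Scr library, ended it (edgeR adjusted p from 0.104 to 0.156), and so did other settings: the close pairs summed (0.294), the replicate block (0.0756), upper-quartile scaling (0.0520) and the library size alone (0.206). The same transcript made up 25.2%, 26.1% and 19.3% of the summed TPM of Vegfa, Vegfb, Vegfc, Vegfd and Pgf in Y-KO, against 20.2%, 23.4% and 21.7% in Y-Scr. Those shares overlapped.

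Angptl4 (chromosome 17, 33992724 to 34000804) encodes a secreted inhibitor of lipoprotein lipase that is induced by hypoxia and by fatty acids through the Ppar receptors. It was at 52.3, 48.7 and 34.8 CPM in Y-KO, against 42.6, 34.9 and 33.9 CPM in Y-Scr. Y-KO replicates 1 and 2 were above every Y-Scr library and Y-KO replicate 3 was among them. The log2 fold change was 0.28 (95% interval -0.09 to 0.66, edgeR adjusted p = 0.289). Without Y-KO replicate 3 it was 0.44 and called higher (edgeR adjusted p = 0.00535), a fit in which the Y-KO group is the close pair alone.

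Bnip3 (chromosome 7, 138492565 to 138511248) encodes a protein of the outer mitochondrial membrane that marks mitochondria for removal by autophagy. Its levels were 96.3, 96.1 and 109 CPM in Y-KO, against 71.2, 71.8 and 73.1 CPM in Y-Scr. The groups were clearly apart and each was tight, with a coefficient of variation of 7.14% in Y-KO and 1.32% in Y-Scr. Bnip3 rose 1.39-fold in Y-KO (100.4 ± 7.16 CPM in Y-KO against 72.0 ± 0.948 CPM in Y-Scr; log2 fold change 0.48 with an SE of 0.09, edgeR adjusted p = 0.00777), the smallest adjusted p of the 10 genes. Its close relative Bnip3l, also a mitophagy receptor and a hypoxia target, averaged 170.9 ± 12.5 CPM in Y-KO against 170.1 ± 2.91 CPM in Y-Scr (log2 fold change 0.01). The ratio of Bnip3 to Bnip3l in TPM was therefore 0.964, 1.03 and 1.01 in Y-KO, against 0.725, 0.719 and 0.719 in Y-Scr. The Bnip3 call was lost without Y-Scr replicate 2 (edgeR adjusted p = 0.0545) and with the close pairs summed (edgeR adjusted p = 0.116). Of its exonic bases 22.3% are shared with the opposite-strand gene Gm45507, and reads there were left out of the counts. The 37 mitochondrial genes took 6.39% to 6.44% of counts in Y-KO and 2.87% to 2.99% in Y-Scr, and their part in the Bnip3 result was not tested.

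Car9 (chromosome 4, 43506966 to 43513729) encodes carbonic anhydrase 9, a cell-surface enzyme that controls pH and is widely used as a hypoxia marker in tumours. It was at 39.3, 38.4 and 49.0 CPM in Y-KO, against 47.9, 46.9 and 48.5 CPM in Y-Scr. Y-KO replicate 3 was the highest of all libraries, and Y-KO replicates 1 and 2 were the lowest. The log2 fold change was -0.18 (95% interval -0.44 to 0.08, edgeR adjusted p = 0.341). Ndrg1 (chromosome 15, 66801167 to 66841489), a stress-responsive gene linked to differentiation and to metastasis, was likewise lowest in Y-KO replicates 1 and 2. It stood at 303, 291 and 369 CPM in Y-KO, against 379.9, 370.1 and 379 CPM in Y-Scr. All Y-KO libraries were lower than all Y-Scr libraries, replicate 3 by very little. The log2 fold change of -0.23 (95% interval -0.46 to -0.00396) did not pass (edgeR adjusted p = 0.156).

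Without Y-KO replicate 3, Ndrg1 and Car9 were both called lower (log2 fold changes -0.34 and -0.30, edgeR adjusted p = 0.000231 and 0.0172). The Y-KO group was then the close pair alone. Ndrg1 was also called lower with the library size alone (edgeR adjusted p = 0.0376). Its chromosome, 15, had a median log2 fold change of -0.14 over 722 tested genes. The chromosomes of the other hypoxia genes had medians from -0.033 (chromosome 12) to 0.015 (chromosome 8). The part of the chromosome in the Ndrg1 value was not tested. The sum of the 9 fibroblast markers was also lowest in Y-KO replicates 1 and 2, at 174, 178 and 621 CPM in Y-KO against 936 to 997 CPM in Y-Scr. Dcn made up most of that gap within Y-KO (54.1, 57.6 and 423 CPM), while Thy1 was lowest in Y-KO replicate 3 (48.6, 54.5 and 35.1 CPM in Y-KO against 149 to 163 CPM in Y-Scr) and Col1a2 was higher in all Y-KO libraries (6.41 to 8.92 CPM in Y-KO against 4.04 to 5.72 CPM in Y-Scr). Of the 9, 3 were called lower and 0 higher, beside 8.27% lower and 7.82% higher of all genes. The part of these markers in the Car9 and Ndrg1 values was not tested.

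Egln3 (chromosome 12, 54225767 to 54250646) encodes the prolyl hydroxylase that is itself the most hypoxia-inducible of its family and acts as a feedback brake on the factors. Its levels were 245, 236 and 198 CPM in Y-KO, against 198, 201 and 193 CPM in Y-Scr. Y-KO replicates 1 and 2 were the highest libraries and replicate 3 lay within the Y-Scr range. The log2 fold change was 0.20 (95% interval -0.02 to 0.41, edgeR adjusted p = 0.206), and without Y-KO replicate 3 it was 0.28 and called higher (edgeR adjusted p = 0.00188). Egln3 made up 61.1%, 60.6% and 53.9% of the summed TPM of Egln1, Egln2 and Egln3 in Y-KO, against 59.4%, 61.3% and 59.5% in Y-Scr. Ankrd37 (chromosome 8, 46449939 to 46458744), an ankyrin repeat gene used as a marker of Hif1a activity, was at 16.7, 12.5 and 16.5 CPM in Y-KO, against 13.9, 13.6 and 13.4 CPM in Y-Scr. Y-KO replicate 2 was the lowest library of the 6 and the other Y-KO libraries were the highest. Its log2 fold change was 0.16 (95% interval -0.19 to 0.50, edgeR adjusted p = 0.533), and it was called in none of the alternatives. Ankrd37 shares 26.4% of its exonic bases with Ufsp2 and Lrp2bp on the opposite strand, Car9 shares 28.6% with Gm12454, Ndrg1 8.43% and Hif1a 5.60%, and reads there were left out of the counts.

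**Figure D2:**
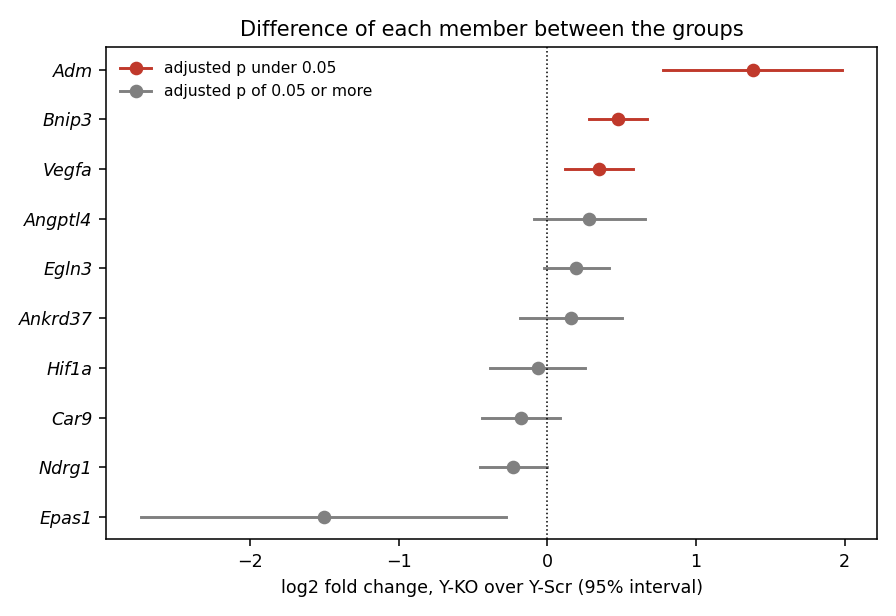
Log2 fold change of each gene, Y-KO over Y-Scr (horizontal axis), with its 95% interval from edgeR over 3 libraries a group; red marks an adjusted p under 0.05. Adm, Bnip3 and Vegfa lie to the right at 1.38, 0.48 and 0.35, while Epas1, at -1.51, has the widest interval.

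The 10 genes did not move as 1 block. In Y-KO replicate 3, the library farthest from the others of its group, Adm was 1.93 times the mean of Y-KO replicates 1 and 2, Car9 1.26 times and Ndrg1 1.24 times, and Bnip3 was also higher. Angptl4 was 0.689 times that mean, Hif1a 0.718, Egln3 0.822, Vegfa 0.856 and Epas1 0.429 times. Known hypoxia targets thus lay on both sides. Measured against the mean of Y-Scr, Car9, Ndrg1 and Egln3 of Y-KO replicate 3 were at 1.03, 0.981 and 1.00 times, whereas the mean of Y-KO replicates 1 and 2 was at 0.814, 0.789 and 1.22 times. The coefficient of variation of each of the 8 induced genes was lower in Y-Scr than in Y-KO, and in Y-Scr it ran between 1.32% for Bnip3 and 16.8% for Adm.

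**Figure D3:**
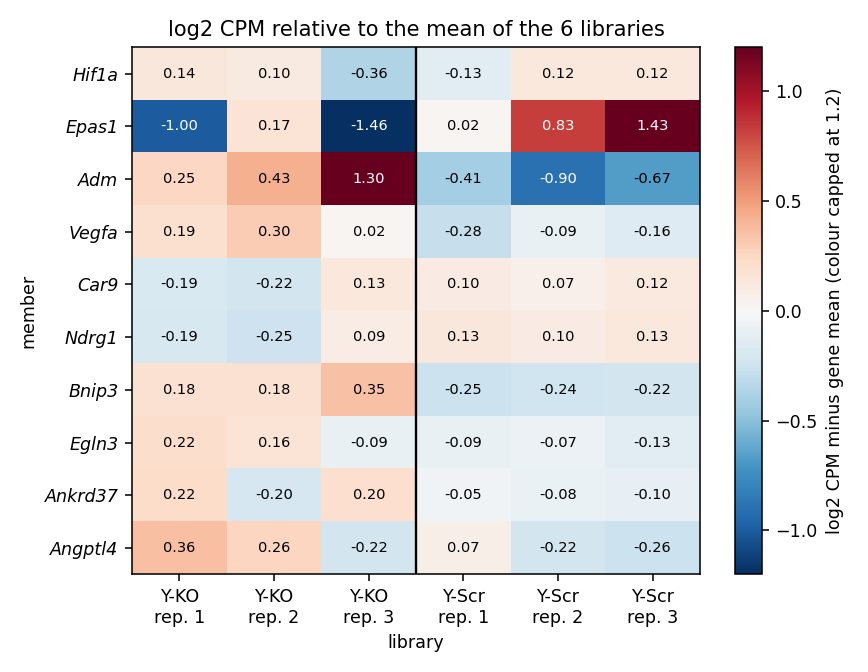
Log2 CPM of each gene in each library relative to that gene's mean over the 6 libraries (rows: genes; columns: Y-KO replicates 1 to 3, then Y-Scr replicates 1 to 3; red higher, blue lower, colour capped at 1.2). Adm and Bnip3 are red in all Y-KO columns, as is Vegfa, though barely in replicate 3 (0.02). Car9 and Ndrg1 are blue in Y-KO replicates 1 and 2 alone.

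Levels of different genes were set side by side as TPM, a scale used here for order within a group only, since its median over all tested genes differed by -0.27 (log2) between Y-KO and Y-Scr. Egln3 was the most abundant transcript in both groups (225 ± 24.3 TPM in Y-KO and 233 ± 9.31 TPM in Y-Scr, SD, n = 3 each) and Ndrg1 the next (129 ± 17.2 TPM in Y-KO and 179 ± 6.08 TPM in Y-Scr). Adm took the third place in Y-KO, at 118 ± 49.3 TPM, and place 7 in Y-Scr, at 53.6 ± 7.23 TPM. Bnip3 followed at 117 ± 8.65 TPM in Y-KO and held the same place in Y-Scr, at 99.8 ± 4.94 TPM. Hif1a was at 99.8 ± 17.7 TPM in Y-KO and 124 ± 16.6 TPM in Y-Scr. In Y-KO the libraries of Ndrg1, Adm and Bnip3 overlapped, as did those of Adm and Hif1a and those of Angptl4 and Ankrd37, so their order was not resolved. In Y-Scr the libraries of Car9 (65.1 ± 2.73 TPM) and Vegfa (61.7 ± 6.25 TPM) overlapped, as did those of Vegfa and Adm. Vegfa in Y-KO, at 66.2 ± 6.39 TPM, lay above Car9, at 48.6 ± 6.84 TPM, in every library. Angptl4 (33.8 ± 6.82 TPM in Y-KO and 32.8 ± 2.86 TPM in Y-Scr) and Ankrd37 (26.2 ± 4.03 TPM in Y-KO and 27.8 ± 0.637 TPM in Y-Scr) came after them. Epas1 was last, at 0.447 ± 0.286 TPM in Y-KO and 1.52 ± 0.749 TPM in Y-Scr.

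Genes of the machinery that controls the factors were called at about the share of all genes. Of the 13 tested genes of 14 (Hif3a did not pass the filter on low counts), 1 was called higher and 1 lower, which is 15.4% beside 16.1% of all genes, and their median log2 fold change was -0.02. Egln1, the main oxygen-sensing hydroxylase, rose to 129.9 ± 5.42 CPM in Y-KO, against 99.0 ± 1.12 CPM in Y-Scr (log2 fold change 0.39, SE 0.08, edgeR adjusted p = 0.0118). Arnt2, an alternative partner of the alpha subunits best known from the nervous system, fell to 2.36 ± 0.927 CPM in Y-KO, against 5.36 ± 0.578 CPM in Y-Scr (log2 fold change -1.18, SE 0.32, edgeR adjusted p = 0.0411). Neither was called with the close pairs summed or without Y-Scr replicate 2 or replicate 3. The Egln1 call was also lost with the library size alone (edgeR adjusted p = 0.0614), and the Arnt2 call without Y-KO replicate 1 (edgeR adjusted p = 0.0597) and without Y-Scr replicate 1 (edgeR adjusted p = 0.0982). Arnt, the usual partner, had a log2 fold change of -0.02 (95% interval -0.22 to 0.19).

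Other hypoxia targets moved in both directions. Of 31 genes 28 were tested, and 5 were called higher and 3 lower in Y-KO, with a median log2 fold change of 0.22. That is 28.6% called, beside 16.1% of all genes. Loxl2, an enzyme that cross-links collagen, fell 2.64-fold to 28.0 ± 2.27 CPM in Y-KO, against 74.1 ± 0.856 CPM in Y-Scr (edgeR adjusted p = 8.14e-05). Stc1, a secreted glycoprotein, fell 8.80-fold to 0.552 ± 0.285 CPM in Y-KO, against 4.87 ± 0.948 CPM in Y-Scr (edgeR adjusted p = 0.00164). Both of these calls held in every alternative. Further called genes, named after their values were seen, were Ero1a, Mxi1, Gys1 and Ndufa4l2 (higher) and Cxcr4 (lower), and each of these 5 calls was lost with the close pairs summed.

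Glycolysis, which the factors raise through transport and enzyme genes, held the largest share of calls among the 7 related lists. Of 22 genes, all tested, 12 were called higher and 2 lower (Slc2a3 and Aldoc), 63.6% beside 16.1% of all genes, with a median log2 fold change of 0.33. Gapdh rose to 4353 ± 35.9 CPM in Y-KO, against 2939 ± 229.6 CPM in Y-Scr (log2 fold change 0.57, edgeR adjusted p = 0.00103), and Pgk1 rose to 1807 ± 27.4 CPM in Y-KO, against 1328 ± 60.9 CPM in Y-Scr (log2 fold change 0.44, edgeR adjusted p = 0.00230). The glucose transporter gene Slc2a3 fell to 19.6 ± 6.72 CPM in Y-KO, against 58.6 ± 4.05 CPM in Y-Scr (log2 fold change -1.58, edgeR adjusted p = 0.00289). The counts were 5 higher and 2 lower without Y-Scr replicate 2, and again without Y-Scr replicate 3, 7 and 2 without Y-KO replicate 2, 6 and 3 with the library size alone, and 0 and 1 with the close pairs summed. Gapdh and Pgk1 have many near-identical pseudogenes, and reads that fit several places were not counted, so their levels are uncertain.

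Receptors for Vegfa and Adm are best known from endothelial cells and neurons, and which cells carried them here was not tested. Of 7 tested genes of 9, 0 were called higher and 2 lower, with a median log2 fold change of 0.16. That is 28.6% called, beside 16.1% of all genes. Nrp1, a co-receptor for Vegfa, fell to 47.8 ± 4.33 CPM in Y-KO, against 83.7 ± 12.1 CPM in Y-Scr (edgeR adjusted p = 0.00427), and Calcrl, which binds adrenomedullin together with Ramp proteins, fell to 3.26 ± 0.752 CPM in Y-KO, against 8.72 ± 0.702 CPM in Y-Scr (edgeR adjusted p = 0.00431). Both calls were lost with the close pairs summed. DESeq2, the fit with no filter and the replicate block each called 1 receptor gene higher and 2 lower, and without Y-KO replicate 3 the counts were 2 higher and 3 lower. Kdr, the main signalling receptor of Vegfa, had a log2 fold change of 1.31 that did not pass (edgeR adjusted p = 0.0814).

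Of the relatives of the 10 genes, 17 of 18 were tested, and 4 were called higher and 0 lower. That is 23.5% called, beside 16.1% of all genes, with a median log2 fold change of 0.15. Angptl2, a secreted relative of Angptl4, rose to 344 ± 45.4 CPM in Y-KO, against 187 ± 4.67 CPM in Y-Scr (log2 fold change 0.88, edgeR adjusted p = 0.00110). Vegfb rose to 81.9 ± 3.30 CPM in Y-KO, against 50.1 ± 1.28 CPM in Y-Scr (log2 fold change 0.71, edgeR adjusted p = 0.00111). Adm2, a peptide hormone of the adrenomedullin family, rose to 33.8 ± 2.78 CPM in Y-KO, against 14.9 ± 2.61 CPM in Y-Scr (log2 fold change 1.18, edgeR adjusted p = 0.00168). These 3 held in every alternative, and the fourth was Egln1. Among genes of lipoprotein lipase and the Ppar receptors, which act with Angptl4, 1 of 7 tested was called higher and 0 lower. This was 14.3% beside 16.1% of all genes, with a median of 0.28. The called gene was Cpt1a, the mitochondrial fatty acid importer (edgeR adjusted p = 0.0486). The Cpt1a call stood beside the threshold and was lost in 10 of 16 alternatives, among them each one that left out a library other than Y-KO replicate 3 (edgeR adjusted p from 0.0863 to 0.156). Lpl, the lipase that Angptl4 inhibits, was at 49.5, 54.0 and 21.2 CPM in Y-KO, against 22.8, 19.4 and 19.6 CPM in Y-Scr, and did not pass (edgeR adjusted p = 0.0524). Lipg went the other way, at 23.6, 27.3 and 13.2 CPM in Y-KO, against 39.3, 34.6 and 35.6 CPM in Y-Scr. It did not pass either (log2 fold change -0.77, edgeR adjusted p = 0.0571). The replicate block called 0 genes of this list higher and 1 lower, and DESeq2 called 2 higher and 1 lower. None of the 6 tested mitophagy genes other than Bnip3 was called, beside 16.1% of all genes, and the median of the 6 was 0.01. With the library size alone 1 of them was called lower, without Y-Scr replicate 1 there was 1 higher, and without Y-KO replicate 3, 1 was called higher and 2 lower.

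**Figure D4:**
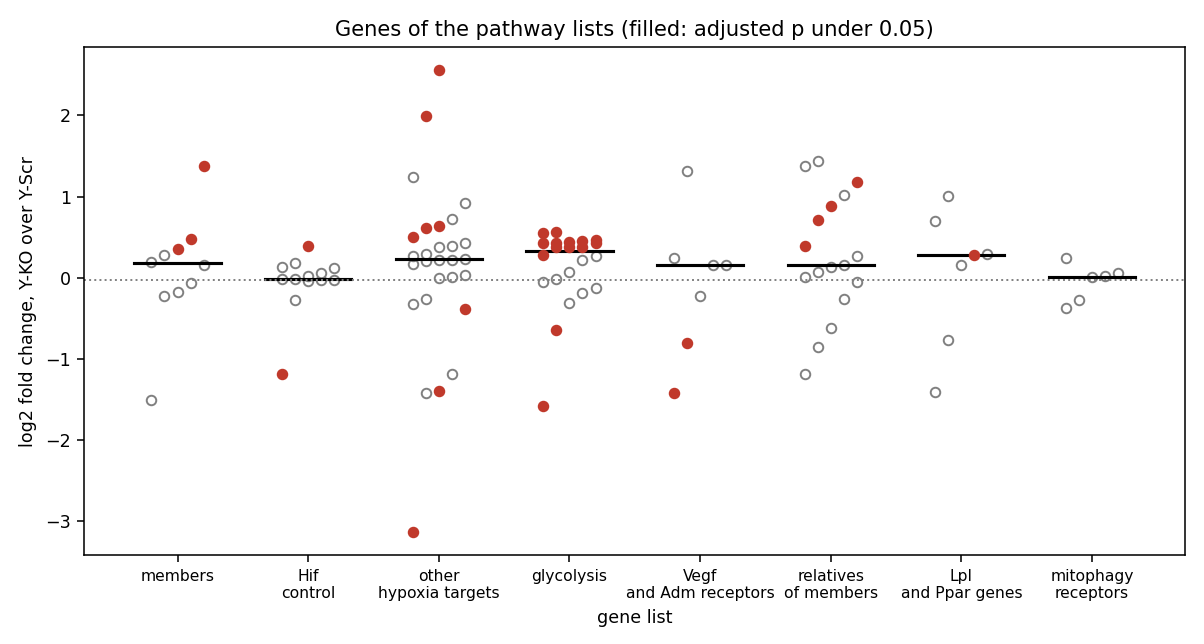
Log2 fold change of every tested gene (Y-KO over Y-Scr, vertical axis) in the 10 genes and in 7 related lists; filled red points have an adjusted p under 0.05, thick lines are list medians, and the dotted line is the median of all tested genes, -0.03. The glycolysis list has the highest median, 0.33, and called points stand on both sides of zero among the other hypoxia targets.

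The genes whose pattern over the 6 libraries was most like that of each factor were found among 9535 genes by the root mean square difference of centred log2 CPM. They were Fbxo42, Nipsnap3b and Nceh1 for Hif1a (0.0331 to 0.0435), and Ppp1r16b, Ikzf3 and Fam78a for Epas1 (0.380 to 0.410). For the mean of the 8 induced genes they were Cops8, Eif3k and Trmt1 (0.0121 to 0.0214).

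Markers of several cell types differed between the groups and also within Y-KO. Their counts of calls stand beside 7.82% called higher and 8.27% called lower of all tested genes. The 8 pan-leukocyte markers summed to 2503, 2548 and 1164 CPM in Y-KO against 3282 to 3404 CPM in Y-Scr, so leukocyte RNA was present in the CD45-negative sort. Among them Ptprc, the gene of CD45 itself, was at 293, 298 and 134 CPM in Y-KO against 521 to 601 CPM in Y-Scr. It was called lower (edgeR adjusted p = 0.0157). Macrophage markers, of which 7 of 11 were called higher, summed to 1222, 1214 and 681 CPM in Y-KO against 549 to 590 CPM in Y-Scr. Neutrophil markers summed to 801, 776 and 265 CPM in Y-KO against 1431 to 1658 CPM in Y-Scr. Red-cell markers lay at 0.931 to 1.22 CPM in Y-KO against 230.4 to 273 CPM in Y-Scr. T and NK cell markers, of which 7 of 8 were called lower, summed to 152, 153 and 90.4 CPM in Y-KO against 354 to 383 CPM in Y-Scr, and mast cell markers, all 6 called lower, to 7.13 to 9.16 CPM in Y-KO against 49.1 to 52.8 CPM in Y-Scr. Pericyte markers, with 0 of 5 tested called, summed to 3.55 to 6.70 CPM in Y-KO against 11.7 to 12.9 CPM in Y-Scr. Epithelial markers summed to 3223 to 3427 CPM in Y-KO against 2390 to 2722 CPM in Y-Scr. Nearly all of this was Krt8 and Krt18, both called higher, as was Krt19. Epcam was called lower (log2 fold change -1.81, edgeR adjusted p = 0.00586), and Cdh1 was at 25.7 to 60.8 CPM in Y-KO against 68.2 to 81.9 CPM in Y-Scr without a call. The urothelial genes Upk2 and Upk3a, among the defining markers of bladder lining, had 0 counts in every library. Macrophages and neutrophils are known to express several hypoxia-induced genes themselves, and the part of any of these cell types in the results above was not tested.

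**Figure D5:**
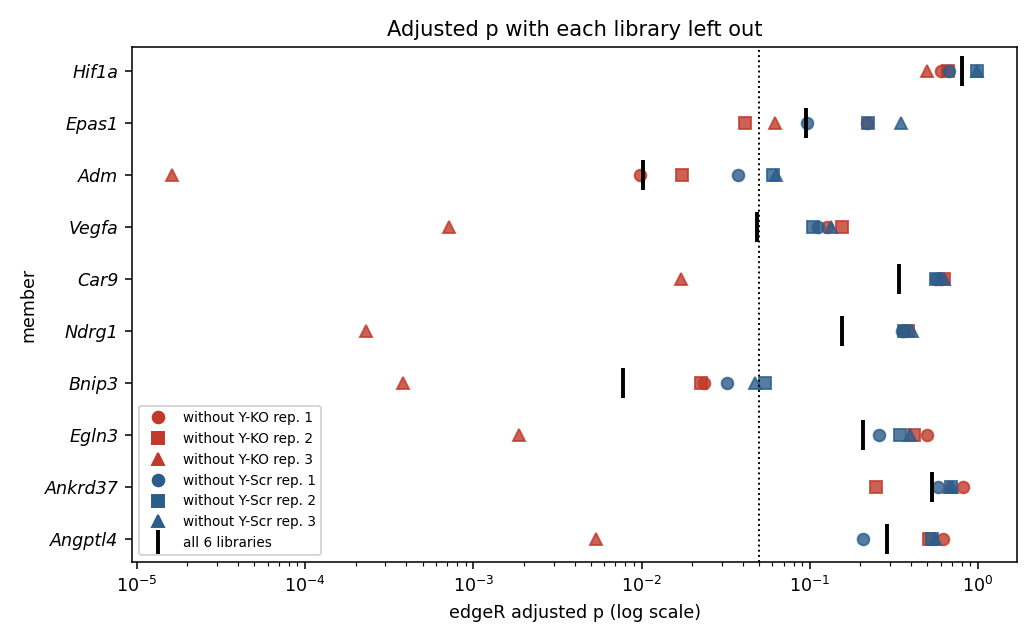
Adjusted p of each gene from edgeR (log scale, horizontal axis) with each library left out in turn; red symbols leave out a Y-KO library, blue symbols a Y-Scr library, the black bar is the value with all 6 libraries and the dotted line is 0.05. Leaving out Y-KO replicate 3 puts 7 genes under the line, while leaving out Y-Scr replicate 2 puts none there.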

How the data were processed

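The file deposited by the authors holds unnormalized counts for each gene in 6 libraries of poly-A RNA. Per the file headers, the authors counted with featureCounts 1.5.3 on the Ensembl release 112 annotation of GRCm39 and set no strand option, so strand was not used and reads shared by overlapping genes were left out. Trimmomatic 0.39 and STAR 2.5.2b were also used, per the submitters' processing notes. Of counts from 2 to 20, 81.2% were even.

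Groups followed the titles. Symbols were matched by gene ID to an older annotation (51880 of 57186). The test was that of edgeR 4.0.16, run in R 4.3.3 (filterByExpr at 10 counts and a total of 15, TMM, quasi-likelihood test, group alone), and a Benjamini-Hochberg adjusted p under 0.05 over all 17837 tested genes was a call. The step was also run on simulated counts. These held no outlying library such as Y-KO replicate 3, so they do not bear on how the calls depend on it. CPM is scaled by TMM. TPM was computed from the counts and the gene lengths of the file. Tried as alternatives were DESeq2 1.42.0, limma-voom (limma 3.58.1), a replicate block, RLE, upper-quartile and library-size scaling, no filter, a mean of at least 1 CPM, halved counts, sums of the close library pairs and leaving out each library.

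The 10 genes, the lists and the tests were chosen with earlier results of these data known. The text names the 10 genes, up to 4 of the control list and up to 3 of each other list by smallest p, and the 3 most like in pattern. Arnt, Bnip3l and Aldoc were named after their values were seen, as were the others that the text says so of. A gene that the rule names is not reported here.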

Additional observations from a re-analysis of the deposited data

How the results depend on the processing

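Each of the 10 genes was refitted under 16 alternatives, and 137 of the 160 values kept their direction and their side of the threshold. The sign of the log2 fold change held in 16 of 16 alternatives for 9 genes and in 15 of 16 for Hif1a, which ran from -0.15 to 0.076 as libraries were left out. Adm was called in 13 of 16, Bnip3 in 14 and Vegfa in 7. With the close pairs summed, 496 genes and 0 of the 10 hypoxia genes were called, with fewer samples in the fit. Leaving out 1 library gave 1037 to 6393 called genes (2871 with all) and 0 to 7 called hypoxia genes (3 with all). Both highest counts came without Y-KO replicate 3, and the lowest without Y-Scr replicate 2 (1043 genes, 0 of the 10) or replicate 3 (1037 genes, 1 of the 10); the cause was not tested. DESeq2 called 3 higher and 1 lower of the 10. With the library size alone, 730 genes were called higher and 2255 lower in place of 1395 and 1476, the median over all genes was -0.17 in place of -0.03, and of the 10 genes 2 were higher and 1 lower. Another 3 hypoxia genes, named after their values were seen, changed sign when libraries were left out. Ddit4 ran from -0.70 to 0.53 (and was -0.091 with the replicate block and -0.074 with limma-voom, against 0.23), Slc16a3 from -0.42 to 0.24 and Pfkfb3 from -0.19 to 0.25 (log2 fold change), the value farthest from the others coming without Y-KO replicate 3 in each; the cause was not tested. The replicate block called 2066 genes and 2 of the 10, Adm and Bnip3. Same-numbered libraries did not deviate together over all tested genes (correlations -0.00835, 0.0049 and -0.0145). The numbers thus gave no sign of pairing, which 3 libraries a group cannot exclude. Epas1 had 22 to 212 counts per library, the fewest of the 10 genes, and its log2 fold change was -1.50 with halved counts as well.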

Other observations

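Y-KO replicate 3 differed from the other Y-KO libraries in several hypoxia genes that were named after their values were seen. Ddit4, a hypoxia- and stress-induced inhibitor of mTOR, was at 274, 269.5 and 1005 CPM in Y-KO, against 450.2, 441 and 433 CPM in Y-Scr, so that Y-KO replicate 3 was above and the other Y-KO libraries below every Y-Scr library. Slc16a3, a lactate exporter, had the opposite order, at 158, 177 and 53.5 CPM in Y-KO, against 149.9, 137 and 137 CPM in Y-Scr. Ndufa4l2, a mitochondrial hypoxia target, was at 6.11, 5.01 and 20.6 CPM in Y-KO, against 1.74, 2.02 and 1.65 CPM in Y-Scr. Vegfc, a lymphatic growth factor, was at 20.9, 16.9 and 50.3 CPM in Y-KO, against 54.9, 45.9 and 57.9 CPM in Y-Scr. Neither Ddit4 (edgeR adjusted p = 0.784) nor Vegfc (0.146) was called with all 6 libraries.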
